A study of Mus musculus with 12 samples.

Results

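The comparison described here set the 6 tumour libraries from mice given an antibody against PD-1 against the 6 libraries from mice not given it, with the presence of entinostat as a blocking factor. It took all 12 libraries of the study. The antibody was given alone in 3 libraries (anti-PD-1) and with entinostat, which blocks class I histone deacetylases and is taken by mouth, in 3 (combination). The libraries without antibody were 3 controls and 3 with entinostat alone. The libraries are RNA-seq of dissected lung tumours from the RPM mouse, a model of small cell lung cancer. All groups carried conditional Rb1 fl/fl and p53 fl/fl alleles and the Myc lsl/lsl (T58A) allele, and received an adenovirus (Ad5CGRP-Cre) into the trachea at 8 weeks of age, in which a promoter of neuroendocrine cells drives Cre. Mice with tumours on magnetic resonance imaging were randomized by tumour volume. The antibody was given at 10 mg/kg into the peritoneum for 4 weeks, and entinostat at 15 mg/kg daily for 28 days. The protocols name methylcellulose and a Rat IgG2a isotype antibody as controls, and the labels do not tell which of these the control and entinostat libraries received. The question was which tumour genes differed with the antibody when the entinostat and non-entinostat strata were read together.

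PD-1, encoded by Pdcd1, is an inhibitory receptor on activated T cells, and its ligands PD-L1 (Cd274) and PD-L2 (Pdcd1lg2) are carried by tumour and myeloid cells. Antibodies to PD-1 prevent that contact and so release T cell activity; interferon gamma from T cells raises antigen presentation genes, chemokines and PD-L1 in neighbouring cells. Small cell lung cancer is a neuroendocrine tumour known for sparse T cells and low MHC class I.

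Total counts ranged from 31295987 to 37076865 in the libraries with antibody and from 31987261 to 54001886 in those without. The labels do not say that each library came from a different mouse, so p-values measure only the spread between these samples. Control library 1 stood apart on the first principal component (27.2% of variance) and had the lowest level of several antigen presentation genes, so counts are also given without it. Xist was high (at least 1111 CPM, the count over the library total scaled by TMM factors) in 4 of the 6 libraries with antibody and in 2 of the 6 without, and at most 2.05 CPM in the rest; sex was therefore unevenly spread over the comparison. Structural RNA made up a larger part of the counts with antibody, as described at the end. In bulk tissue, fewer cells of a type and less RNA per cell cannot be told apart. The tissue expressed the neuroendocrine regulator Insm1 at 39.1 to 101 CPM and the neuronal hydrolase Uchl1 at 109 to 755 CPM in all 12 libraries.

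No gene passed the test for the antibody. Of 17426 genes tested, 0 (0%) had an adjusted p under 0.05 (edgeR quasi-likelihood test, Benjamini-Hochberg), and the smallest adjusted p was 0.522. At an unadjusted p under 0.05 there were 1643 genes, 614 higher with antibody (3.52% of genes tested) and 1029 lower (5.9%). That split depended on the scaling: upper quartile factors gave 994 higher and 497 lower, and moved the median log2 difference over all genes from 0.02 to 0.12. DESeq2, with the same blocked design, passed 11 genes (0.0631%), 9 higher (Acsf2, AI854517, Cxcl3, Igfbp4, Itpr3, Lrp1, Plekha4, Prrx2 and Rprl3) and 2 lower, among them Qdpr. The median 95% interval around a gene's log2 fold change was 0.59 to either side, without adjustment for the number of genes. It is therefore not the size needed for a call, which was larger: AI854517, at 1.82 (SE 0.38), had an edgeR adjusted p of 0.522. Leaving out control library 1 left 0 genes past the threshold and 1390 at an unadjusted p under 0.05, and without anti-PD-1 library 2 the latter count was 1077.

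**Figure D1:**
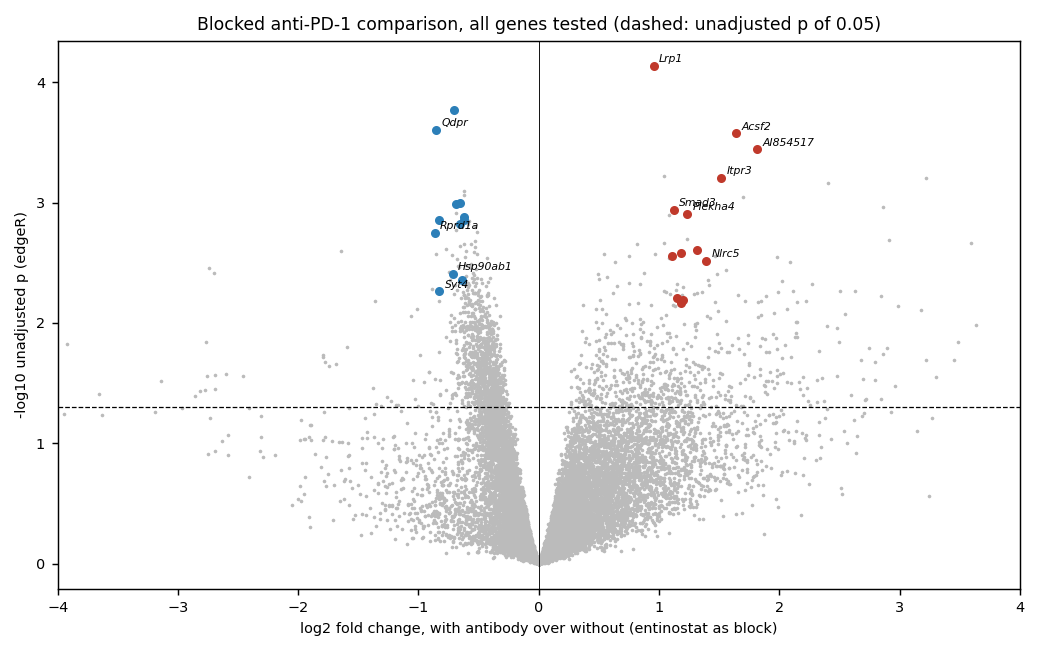
Log2 fold change (with antibody over without, entinostat as block, horizontal axis) against −log10 unadjusted edgeR p (vertical axis) for the genes tested; 6 genes beyond a log2 of 4 are not drawn, and coloured points are Lrp1 and the genes chosen by size, some labelled. No point reached an adjusted p under 0.05, and the lower side is more densely filled above the dashed line at an unadjusted p of 0.05.

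No gene of the PD-1 pathway passed the test, and Pdcd1 itself was near the limit of detection. Pdcd1 was at 0, 0.642 and 0.152 CPM in the control libraries, 0.969, 0.141 and 0.544 with anti-PD-1, 0.704, 0.527 and 0.306 with entinostat and 0.143, 0.503 and 0 in the combination. The antibody and other libraries overlapped over their whole range. The count of 0 in control library 1 allows up to 0.0587 CPM (3 counts, counting error only), or more if both mates of a pair were counted. Cd274, encoding the ligand PD-L1, was at 1.29, 3.93 and 3.52 CPM in controls against 4.41, 3.64 and 4.87 with anti-PD-1. Under entinostat it was at 4.73, 3.92 and 3.79 CPM without the antibody and 6.92, 5.94 and 3.85 with it. The values overlapped in both strata, and the log2 fold change of Cd274 was 0.49 (SE 0.30, edgeR adjusted p 0.592). Pdcd1lg2, the other ligand, was at 0 to 0.638 CPM without and 0.101 to 0.858 CPM with the antibody. Lag3, an inhibitory receptor of T cells, was at 1.14 to 3.02 CPM without and 2.45 to 4.62 CPM with the antibody, a log2 difference of 0.43 (SE 0.31, edgeR adjusted p 0.65). Ctla4, the other main checkpoint target, was at 0.0391 to 1.2 CPM without the antibody and 0 to 4.14 CPM with it, its top value in anti-PD-1 library 1. Tigit, a further inhibitory receptor, had a median of 0.441 CPM with and 0.15 CPM without the antibody, with overlap. Of the 28 checkpoint genes listed, 26 could be tested and 0 had an unadjusted p under 0.05. Their median log2 difference was 0.28, against 0.02 over all genes. With the structural RNA share as a covariate the checkpoint median was 0.10.

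Several defining transcripts of T cells were scarce in all 12 libraries, while Cd247, the zeta chain of the T cell receptor complex, was at 10.7 to 23.4 CPM in each. Cd3e, a signalling chain that defines T cells, reached 0.428 CPM at most, in combination library 2, and was at 0 in control library 1, entinostat libraries 1 and 3 and combination libraries 1 and 3. Gzmb, a cytotoxic granule protease, reached 0.334 CPM, and Ifng, encoding interferon gamma, was found only in control library 1 at 0.0783 CPM; these genes were too low to test. Cd8a, the co-receptor of cytotoxic T cells, was at 0.137, 0.186 and 0.304 CPM in controls and 1.74, 0.353 and 0.363 with anti-PD-1. With entinostat it was at 0.220, 0.527 and 0.550 CPM and in the combination at 0.658, 0.553 and 0.452. Cd8a lay apart without entinostat and overlapped under it, with anti-PD-1 library 1 far above the rest; its log2 fold change was 1.15 (SE 0.57, edgeR adjusted p 0.54). Cd4, the co-receptor of helper T cells, was at 0.916 to 4.74 CPM without and 1.11 to 2.87 CPM with the antibody. Foxp3, the regulator of regulatory T cells, was at 12.4 to 24.7 CPM without and 8.04 to 14.4 CPM with the antibody, levels far above Cd3e in the same libraries.

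**Figure D2:**
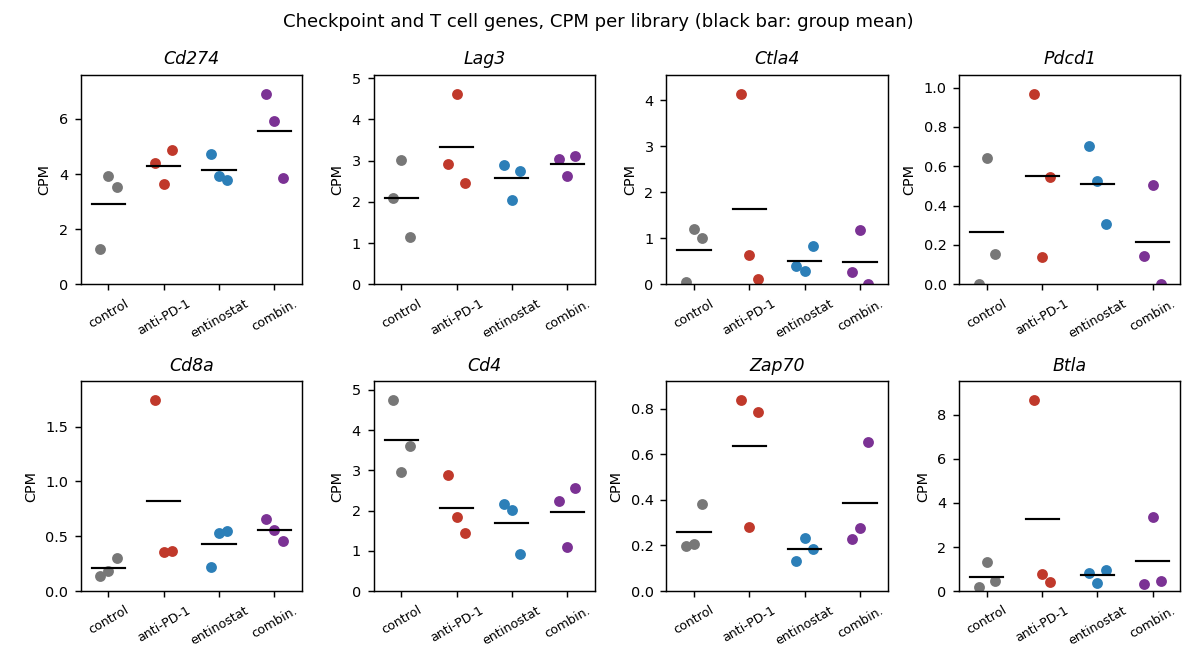
CPM (vertical axes, each from 0) of 8 checkpoint and T cell genes in the 12 libraries by group, with black bars at group means. The antibody and other libraries overlap in each panel over all 12 libraries, and anti-PD-1 library 1 is the highest point for Ctla4, Pdcd1, Cd8a, Zap70 and Btla.

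Of 21 T cell markers tested, 19 were nominally higher with the antibody, with a median log2 difference of 0.88. Only 3 had an unadjusted p under 0.05 (14.3% of the list against 3.52% of all genes higher): Zap70, a kinase of the T cell receptor, Lat, its adaptor, and Cd5, a surface regulator. Zap70 ranged from 0.229 to 0.836 CPM with and from 0.132 to 0.380 CPM without the antibody, a log2 difference of 1.18 (SE 0.48, edgeR adjusted p 0.522). Cd5 ranged from 0.176 to 1.60 CPM with the antibody and from 0 to 0.269 CPM without. The summed level of the T cell list was 29.0 to 86.6 CPM with and 22.0 to 57.1 CPM without the antibody, so the groups overlapped, and Cd247 alone gave 10.7 to 23.4 CPM of it. The list rested in part on single libraries: without anti-PD-1 library 1 its median was 0.50 and 0 of its genes had an unadjusted p under 0.05, and the latter was also so without control library 1; without entinostat library 3 that count was 1. The count was again 0, with a median of 0.74, both with sex and with the structural RNA share as a covariate. Cytotoxic and NK cell genes (10 tested of 18) had a median of 0.86 and exhaustion and regulatory T cell genes (12 of 14) of 0.33, with 0 and 1 gene at an unadjusted p under 0.05. With the structural RNA covariate the exhaustion median was 0.14. A stricter filter, of at least 1 CPM in 6 libraries, left 0 cytotoxic genes and 6 T cell markers to test. Those 6 had a median of 0.55, with 0 at an unadjusted p under 0.05.

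Genes induced by interferon had mostly positive differences, none past the threshold of the test. Of 30 such genes, 28 had a positive log2 difference and 7 an unadjusted p under 0.05, all higher (23.3% of the list against 3.52% of all genes), with a median of 0.94. Irf7, a transcription factor of the type I interferon response, was at 1.096, 2.63 and 2.53 CPM in controls and 3.08, 4.52 and 4.38 with anti-PD-1. Under entinostat Irf7 was at 3.06, 2.17 and 3.02 CPM, and in the combination at 5.46, 13.4 and 3.37. All 6 antibody libraries lay above the 6 others, the nearest being 3.08 and 3.06 CPM (log2 fold change 1.19, SE 0.37, edgeR adjusted p 0.522). Irf7 was also chosen by a rule that required separation within strata, shown by 0.379% of all genes on the higher side. Over all 12 libraries, 11 of the 17426 genes tested lay apart on that side. Rsad2, an antiviral enzyme, had a median of 5.12 CPM with and 2.20 CPM without the antibody, and Mx1, an antiviral GTPase, 0.793 and 0.285 CPM, both with overlap. Cxcl9, a chemokine that draws T cells and is induced by interferon gamma, was at or below 0.31 CPM without the antibody and reached 1.80 CPM in anti-PD-1 library 1 and 1.23 CPM in combination library 2, while the other 4 antibody libraries were at 0.0572 to 0.242 CPM. Single libraries moved the interferon count: it was 1 without combination library 2, 3 without entinostat library 2 or 3, 4 without control library 1 or anti-PD-1 library 3, 12 without combination library 3 and 16 without control library 2. With sex as a covariate 3 of the 30 had an unadjusted p under 0.05 (median 0.88), and with the structural RNA share 2 (median 0.90).

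Antigen presentation genes lay on both sides of 0. Nlrc5, the transactivator of MHC class I genes, was at 0.470, 1.24 and 0.936 CPM in controls and 4.45, 1.73 and 2.63 with anti-PD-1. Under entinostat Nlrc5 was at 2.92, 2.58 and 2.02 CPM without the antibody and 3.49, 8.65 and 3.59 with it. Each antibody library was above each library without it in the same stratum, and the log2 fold change was 1.39 (SE 0.38, edgeR adjusted p 0.522). Nlrc5 was also chosen by a rule that required this separation, which 0.379% of all genes showed on the higher side. H2-Q4, a class I gene with near-identical relatives whose reads could be split, had medians of 9.16 and 4.24 CPM with and without the antibody. The classical class I heavy chains overlapped: H2-K1 ranged from 36.4 to 115 CPM with and from 10.3 to 88.2 CPM without the antibody, a log2 difference of 0.57 (SE 0.39, edgeR adjusted p 0.631), and H2-D1 from 53.2 to 101 and from 27.9 to 96.0 CPM. B2m, the light chain of class I molecules, ranged from 30.01 to 98.6 CPM with and from 19.0 to 75.6 CPM without the antibody. Calr and Pdia3, chaperones of the peptide loading complex, stood lower with the antibody at an unadjusted p under 0.05. Of 21 class I genes 2 were higher and 2 lower at that level (9.52% each, against 3.52% and 5.9% of all genes), with a median of 0.31. Of 12 class II genes 1 was higher (H2-Oa) and 0 lower, with a median of 0.17, and Cd74, the class II invariant chain, ranged from 5.50 to 58.8 CPM with and 1.90 to 50.7 CPM without the antibody. The class II median was not steady: it ran from −0.10 without combination library 2 and −0.02 without control library 1 to 0.85 without control library 2.

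Other immune lists showed the same pattern of positive medians without calls. Chemokines and their receptors had a median of 0.49, with Cxcl2 and Cxcl12 the 2 of 23 tested at an unadjusted p under 0.05 (8.7% against 3.52% of all genes higher). Cxcl12, a chemokine of stromal cells, was at 0.861, 5.55 and 2.83 CPM in controls against 12.3, 7.48 and 1.81 with anti-PD-1, and at 6.64, 5.39 and 3.06 CPM with entinostat against 11.8, 20.1 and 3.04 in the combination. Both strata overlapped. B and plasma cell markers had a median of 1.11, with Pax5, the B cell identity factor, and Cd79a, a chain of the B cell receptor, the 2 of 17 at that level (11.8%). Pax5 ranged from 0.353 to 5.73 CPM with and from 0.124 to 0.835 CPM without the antibody. The B cell median was 0.57 without anti-PD-1 library 1, 0.33 without combination library 2 and 0.64 with sex as a covariate. The filter of at least 1 CPM in 6 libraries left 10 B cell genes, with a median of 0.795 and 0 at an unadjusted p under 0.05. Medians were 0.35 for macrophage and monocyte markers (1 of 24, Cd163), 1.05 for neutrophil markers (0 of 10) and 0.36 for dendritic cell markers (0 of 12). With the structural RNA share as a covariate these medians were 0.21, 0.35 and 0.53. The macrophage median was 0.14 without combination library 2.

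Because no gene passed, genes were also taken by size among those with an unadjusted p under 0.01, a mean log2 CPM of 1 or more and antibody libraries apart from the others within each entinostat stratum. Over all genes, 66 lay apart in both strata on the higher side (0.379%) and 111 on the lower side (0.637%). With all 12 libraries taken at once, 11 of the 17426 genes tested lay apart on the higher side and 26 on the lower side. For genes chosen in this way, separation within strata was required by the rule and is not a result. The 24 genes so chosen, and Lrp1, each had an adjusted p of 0.522 in edgeR.

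Lrp1, a large endocytic receptor of the LDL receptor family, had the smallest p of all genes. It was at 42.0, 35.9 and 42.6 CPM in controls and 92.6, 126 and 81.6 CPM with anti-PD-1. Under entinostat it was at 128, 108 and 105 CPM without the antibody and 171, 159 and 185 CPM with it. The lowest antibody library of each stratum was well above the highest library without, and the log2 fold change was 0.95 (SE 0.17). Igfbp4, a secreted binder of insulin-like growth factors that DESeq2 also passed, was at 6.05 to 10.9 CPM in controls, 14.4 to 31.02 CPM with anti-PD-1, 14.4 to 18.9 CPM with entinostat and 23.7 to 36.7 CPM in the combination. AI854517, a gene without an assured function, was at 0.431, 0.290 and 0.810 CPM in controls, 3.11, 3.64 and 2.72 with anti-PD-1, 2.26, 2.52 and 2.99 with entinostat and 5.20, 5.66 and 5.20 in the combination. Its log2 fold change, 1.82 (SE 0.38), was the highest of those chosen by size. Acsf2, an acyl-CoA synthetase, was at 0.481 to 1.18 CPM in controls and 2.60 CPM at the middle library with anti-PD-1, and at 2.81 to 6.00 CPM with entinostat against 9.18 to 15.1 CPM in the combination. Itpr3, a calcium channel of the endoplasmic reticulum, was at 2.96, 5.80 and 1.11 CPM in controls, 13.7, 9.00 and 8.61 with anti-PD-1, 21.7, 38.2 and 15.3 with entinostat and 67.7, 59.3 and 68.8 in the combination. Its anti-PD-1 libraries were below its entinostat libraries, so the groups were apart only within strata.

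Smad3, a transducer of TGF-beta signals, was at 3.33, 4.43 and 4.83 CPM in controls and 5.58, 15.3 and 12.4 with anti-PD-1, and at 15.4, 16.4 and 9.90 CPM with entinostat against 29.3, 17.5 and 28.3 in the combination (log2 fold change 1.12, SE 0.27). The other genes on the higher side were Rarg (a retinoic acid receptor), Plekha4, Dok3 (an adaptor of immune cell receptors), Nanos3 (an RNA-binding protein of germ cells), Slc26a11 (an anion transporter) and Sorbs3 (the focal adhesion protein vinexin). Nanos3 was, like Irf7, apart over all 12 libraries, at 2.36 to 4.73 CPM with and 0.962 to 1.98 CPM without the antibody. Most of these genes were expressed at under 10 CPM in most libraries. Of the remaining genes that DESeq2 passed, Cxcl3, a neutrophil chemokine, was at 0.181 to 2.57 CPM with and 0 to 0.176 CPM without the antibody, and Prrx2, a mesenchymal homeobox factor, at 0.201 to 6.89 and 0.0759 to 0.469 CPM. Rprl3, a copy of the RNase P RNA gene whose reads may be shared with Rpph1, was at 443 to 1525 CPM with and 114 to 466 CPM without the antibody.

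**Figure D3:**
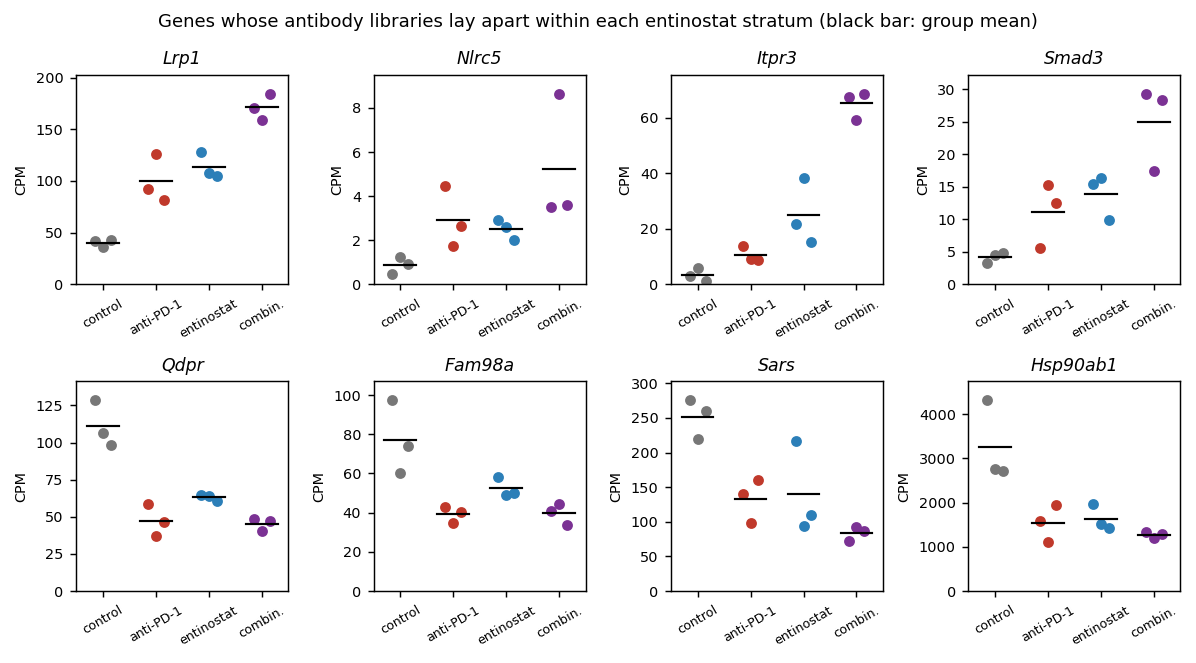
CPM (vertical axes, each from 0) in the 12 libraries by group of 4 genes that lay higher and 4 that lay lower with the antibody in both strata, with black bars at group means. In each panel the anti-PD-1 points are apart from the control points and the combination points from the entinostat points, while anti-PD-1 and entinostat points often cover the same range.

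The genes on the lower side were expressed at higher levels. Qdpr, which recycles the cofactor tetrahydrobiopterin, was at 128, 106 and 98.4 CPM in controls and 58.5, 36.9 and 46.5 with anti-PD-1. Under entinostat Qdpr was at 64.6, 64.3 and 60.7 CPM without the antibody and 48.5, 40.7 and 47.0 with it. All 6 antibody libraries were below the 6 others (log2 fold change −0.85, SE 0.17). Sars, the seryl-tRNA synthetase, was at 275, 220 and 260 CPM in controls against 141, 97.7 and 161 with anti-PD-1, and at 217, 94.4 and 110 CPM with entinostat against 71.6, 92.3 and 87.4 in the combination. Hsp90ab1, a cytosolic chaperone, was at 4309, 2768 and 2707 CPM in controls against 1577, 1109 and 1952 with anti-PD-1, and at 1957, 1511 and 1427 CPM with entinostat against 1330, 1206 and 1289 in the combination (log2 fold change −0.72, SE 0.20). In the entinostat stratum the gap was small, from 1330 to 1427 CPM.

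Cct7, a subunit of the cytosolic chaperonin, was at 506 to 929 CPM in controls, 318 to 451 CPM with anti-PD-1, 361 to 369 CPM with entinostat and 214 to 346 CPM in the combination. Syt4, a vesicle protein of neuroendocrine cells, ranged from 22.8 to 77.3 CPM with and from 73.8 to 161 CPM without the antibody. Fam98a, Rpl7l1 and Elovl6, the last an elongase of fatty acids, were apart over all 12 libraries: Fam98a at 34.0 to 44.6 against 48.8 to 97.3 CPM, Rpl7l1 at 102 to 132 against 134 to 283 CPM and Elovl6 at 68.1 to 99.8 against 113 to 170 CPM. Among all 17426 genes tested, 26 were apart in this way on the lower side. Rprd1a (a regulator of RNA polymerase II), Nudt5 (an ADP-sugar hydrolase) and Atxn7l3b were also on this side, with log2 fold changes from −0.87 for Rprd1a to −0.62 for Atxn7l3b. For Nudt5, controls were at 123 to 145 CPM while the other 9 libraries were at 51.7 to 65.8 CPM.

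Genes of proliferation, ribosome biogenesis and energy metabolism stood lower with the antibody, by small amounts and without a call. Of 28 cell cycle genes, 0 were higher and 12 lower at an unadjusted p under 0.05 (42.9% of the list against 5.9% of all genes lower), with a median log2 difference of −0.30. Bub1, a kinase of the spindle checkpoint, was at 162, 84.0 and 107 CPM in controls and 74.3, 75.6 and 56.2 with anti-PD-1, and at 89.5, 74.4 and 80.9 CPM with entinostat against 71.6, 63.0 and 50.7 in the combination. It was apart within each stratum (log2 fold change −0.59, SE 0.17). Cdk1, the mitotic kinase, was at 250 to 293 CPM in controls and 95.4 to 175 CPM with anti-PD-1, but at 110 to 125 and 83.7 to 111 CPM under entinostat, where the groups overlapped. Mki67, the proliferation marker, showed no such difference, at 317 to 1054 CPM with and 368 to 1006 CPM without the antibody. The count of 12 was 6 with upper quartile factors (median −0.20), and 1 with the share of structural RNA as a covariate (median −0.17).

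Of 24 genes of MYC and ribosome biogenesis 10 were lower at an unadjusted p under 0.05 (41.7%) and 0 higher, with a median of −0.40. The list's mean log2 CPM was 6.75 to 7.11 in the libraries with antibody and 7.12 to 7.77 in those without. The gap was narrow, from 7.107 in anti-PD-1 library 3 to 7.124 in entinostat library 3, on TMM-scaled values. Upper quartile factors moved the list's median log2 difference to −0.30. Fbl, the methyltransferase fibrillarin of the nucleolus, was at 181, 119 and 128 CPM in controls and 64.1, 73.1 and 72.6 with anti-PD-1, and at 84.3, 90.8 and 76.4 CPM with entinostat against 75.3, 76.3 and 69.5 in the combination (log2 fold change −0.61, SE 0.17). Eif4e, the cap-binding translation factor, was at 257 to 272 CPM in controls, 108 to 166 CPM with anti-PD-1, 113 to 219 CPM with entinostat and 106 to 128 CPM in the combination. Myc itself, whose activated allele drives the model, was at 50.6 to 273 CPM without and 79.1 to 210.7 CPM with the antibody, with no separation. The MYC count was 6 without control library 1, anti-PD-1 library 1, entinostat library 1 or combination library 3, 6 with upper quartile factors, and 0 with the structural RNA covariate, where the median was −0.24.

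Hypoxia and glycolysis genes had a median of −0.35, with 8 of 19 lower at an unadjusted p under 0.05 (42.1%). Ldha, the lactate dehydrogenase A chain, was at 915 to 1025 CPM in controls, 464 to 711 CPM with anti-PD-1, 486 to 724 CPM with entinostat and 481 to 519 CPM in the combination. Pgk1 and Eno1, enzymes of glycolysis with processed pseudogenes that can share reads, had log2 differences of −0.72 (SE 0.24) and −0.53 (SE 0.16). The count of 8 was 5 without anti-PD-1 library 2 or 3 or entinostat library 2, 5 with upper quartile factors and 0 with the structural RNA covariate, where the median stayed at −0.34. Respiratory chain subunits had a median of −0.28 and 8 of 24 lower at an unadjusted p under 0.05 (33.3%), or 5 without anti-PD-1 library 2 or with upper quartile factors and 1 with the structural RNA covariate, where the median was −0.05. Atp5b, a subunit of ATP synthase, was at 1236 to 1650 CPM in controls, 543 to 924 CPM with anti-PD-1, 570 to 645 CPM with entinostat and 338 to 661 CPM in the combination. Endoplasmic reticulum chaperones had a median of −0.17, with Calr, Hspa5 and Pdia3 the 3 of 19 lower at that level (15.8% against 5.9% of all genes). Calr and Pdia3 were also counted among the class I genes above. Hspa5, the chaperone BiP, was at 406 to 631 CPM in controls and 242 to 317 CPM with anti-PD-1, but at 242 to 316 CPM with entinostat and 246 to 270 CPM in the combination. Cytosolic ribosomal proteins had a median of −0.17, with 2 of 26 lower (7.69%, near the 5.9% of all genes): Rpl7 and Rpl3, both with many processed pseudogenes.

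Stromal and mesenchymal lists had positive medians that depended on the model. Of 19 fibroblast and matrix genes 4 were higher at an unadjusted p under 0.05 (21.1% against 3.52% of all genes), with a median of 0.53. Pdgfra, a growth factor receptor of fibroblasts, was at 14.4, 12.5 and 6.88 CPM in controls and 14.0, 32.2 and 18.4 with anti-PD-1, and at 22.8, 18.7 and 29.0 CPM with entinostat against 31.5, 33.0 and 94.95 in the combination. It overlapped in the stratum without entinostat and not in the other (log2 fold change 1.06, SE 0.32, edgeR adjusted p 0.522). The collagen Col3a1 ranged from 54.9 to 736 CPM with and from 130 to 322 CPM without the antibody. Twist1, a factor of mesenchymal transition, was at 0.166 to 0.391 CPM in controls, 0.669 to 3.25 CPM with anti-PD-1, 0.244 to 1.52 CPM with entinostat and 0.604 to 7.62 CPM in the combination. Mesenchymal transition genes had a median of 0.33 with Twist1, Tgfb1 and Snai1 the 3 of 14 at an unadjusted p under 0.05 (21.4%), and Fn1, the fibronectin gene, was not among them. With the structural RNA covariate that median was −0.02 and the count 0, and without the entinostat block 0.15 and 1. Alveolar epithelial markers, whose source within the dissected tissue was not located, had a median of 0.30. They summed to 139 to 740.2 CPM with and 116 to 797 CPM without the antibody. Sftpc, a surfactant gene among them, ranged from 1.24 to 179 and from 0.0979 to 237 CPM. The alveolar median ran from 0.02 without combination library 1 to 1.14 without control library 2, and was −0.21 with the structural RNA covariate. The fibroblast count of 4 was 1 without any 1 of the controls or anti-PD-1 library 2, 2 without entinostat library 3 or combination library 1, and 9 without anti-PD-1 library 3. Its median was 0.21 with sex as a covariate, 0.20 without anti-PD-1 library 1 and 0.15 with the structural RNA covariate.

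Medians were 0.37 for YAP1 and TEAD genes (0 of 14 at an unadjusted p under 0.05), 0.18 for Notch pathway genes (2 of 15, the ligand Jag2 and the receptor Notch3, both higher), 0.28 for endothelial markers (0 of 15) and 0.13 for immediate early and stress genes (2 of 21, the AP-1 members Fosl2 higher and Jun lower). The Notch count was 13.3% of its list, against 3.52% of all genes higher. The stress genes were 4.76% on each side, near the 3.52% of all genes higher and 5.9% lower. Jag2 was at 34.8 to 52.1 CPM in controls, 49.4 to 60.6 CPM with anti-PD-1, 70.7 to 79.9 CPM with entinostat and 84.6 to 111 CPM in the combination. Erythroid markers had a median of 0.52 over 4 genes, with Hbb-b1 at 1013 CPM in anti-PD-1 library 2 and at most 555 CPM in the other 11 libraries. The erythroid median was −0.13 without anti-PD-1 library 2 and −0.59 with the structural RNA covariate. Muscle, heart and adipose markers had a median of −0.88 (1 of 14 lower, 7.14% against 5.9% of all genes), airway epithelial markers of −0.00 (0 of 12; 0.07 with upper quartile factors) and mesothelial markers of −0.10 (0 of 7). These turned with single libraries: the muscle median was 0.43 without control library 2 and −0.03 without entinostat library 3, the airway median 1.03 without control library 2 and −0.77 without anti-PD-1 library 2, and the mesothelial median 0.37 and −0.32 without the same libraries. With the structural RNA covariate the airway median was −0.90 and the Notch and stress medians were both −0.02. Of the Notch genes 0 were then higher and 1 lower at an unadjusted p under 0.05.

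Genes of tumour identity varied widely between libraries of the same group. Small cell neuroendocrine markers had a median of −0.12, or 0.09 without entinostat library 3. At an unadjusted p under 0.05, 1 of 19 was higher and 1 lower (5.26% each, against 3.52% and 5.9% of all genes). Insm1, a zinc finger regulator of neuroendocrine genes, was at 101, 64.3 and 74.6 CPM in controls against 55.2, 78.0 and 45.5 with anti-PD-1, and at 67.2, 50.8 and 83.4 CPM with entinostat against 39.1, 48.1 and 46.9 in the combination. Insm1 overlapped without entinostat only (log2 fold change −0.51, SE 0.18, edgeR adjusted p 0.522). Nkx2-1, the lung lineage factor, ranged from 50.6 to 101 CPM with and from 22.8 to 57.7 CPM without the antibody (log2 fold change 0.56, SE 0.22). Neurod1, the regulator of one small cell subtype, ranged from 9.92 to 149.5 CPM with and from 5.65 to 490.2 CPM without the antibody. Regulators of the subtypes had a median of −0.20 (0 of 10), or 0.87 without control library 1. The side of that median was not steady. It was 0.12 in the stratum without entinostat and 0.37 under entinostat. In the blocked comparison it was −0.21 with RLE factors or DESeq2, 0.40 with the replicate block and 0.86 with the structural RNA covariate. Neuronal differentiation genes had a median of −0.20 (1 of 20, Rest, higher). Apoptosis regulators had a median of −0.00, or 0.10 with upper quartile factors (Birc3 higher and Bid lower of 20). Of 23 histone deacetylases and corepressors Hdac7 was higher and 4, among them Hdac1 and its partner Rbbp7, lower at an unadjusted p under 0.05. These were 4.35% and 17.4% of the list, against 3.52% of all genes higher and 5.9% lower. The count of 4 was 2 without control library 1 or anti-PD-1 library 1 or 2, and 6 without combination library 2. It was 2 with upper quartile factors or sex as a covariate, and 0 with the structural RNA covariate. The median of −0.05 was 0.05 with upper quartile factors. Hdac1, a target of entinostat, was at 86.7 to 98.3 CPM in controls, 53.4 to 61.9 CPM with anti-PD-1, 63.1 to 81.3 CPM with entinostat and 58.5 to 76.6 CPM in the combination, overlapping under entinostat.

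The blocked result averages strata of unequal size of difference. Without entinostat, 2691 genes (15.4%) had an unadjusted p under 0.05, 906 higher and 1785 lower with anti-PD-1; upper quartile factors gave 1499 higher and 902 lower and moved the median of all genes from −0.00 to 0.17. Under entinostat 270 genes (1.55%) did, 165 higher and 105 lower in the combination. After adjustment 1 gene passed in edgeR in the first (0.00574%) and 0 (0%) in the second, and DESeq2 passed 704 (4.04%) and 1 (0.00574%). The median size of the log2 difference was 0.42 without and 0.21 with entinostat. Across the 17426 genes, which are not independent replicates, the differences in the strata, which share no library, had a Pearson correlation of 0.14 and a Spearman correlation of 0.19, and 57.5% of genes had the same sign. In the test of the difference between strata, 0 genes (0%) passed in edgeR, 1052 (6.04%) had an unadjusted p under 0.05 and DESeq2 passed 60 (0.344%).

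The gene that passed was Lars2, the mitochondrial leucyl-tRNA synthetase. It was at 458, 300.1 and 334 CPM in controls and 115, 90.4 and 76.7 CPM with anti-PD-1, so its log2 level fell by 1.95 (SE 0.22; adjusted p of 0.0323 in edgeR). With entinostat it was at 130.3, 124 and 103 CPM and in the combination at 115, 96.9 and 128 CPM, so that the 9 treated libraries overlapped and the controls alone were high. The call for Lars2 was lost when any library other than control library 2 was left out, with smallest adjusted p-values up to 0.227 in edgeR, reached without anti-PD-1 library 2.

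Lists differed in how alike the strata were. The median log2 difference of interferon genes was 0.64 without and 0.94 with entinostat, and that of B cell markers 0.89 and 1.1. T cell markers had medians of 1.13 and 0.48, cytotoxic genes of 1.34 and 0.32, cell cycle genes of −0.46 and −0.14 and MYC genes of −0.50 and −0.29. Endoplasmic reticulum chaperones were at −0.48 and 0.05 and mesenchymal transition genes at 0.61 and −0.02. These differences between strata were not tested for lists, and 0 members of any list passed the test of the difference between strata.

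**Figure D4:**
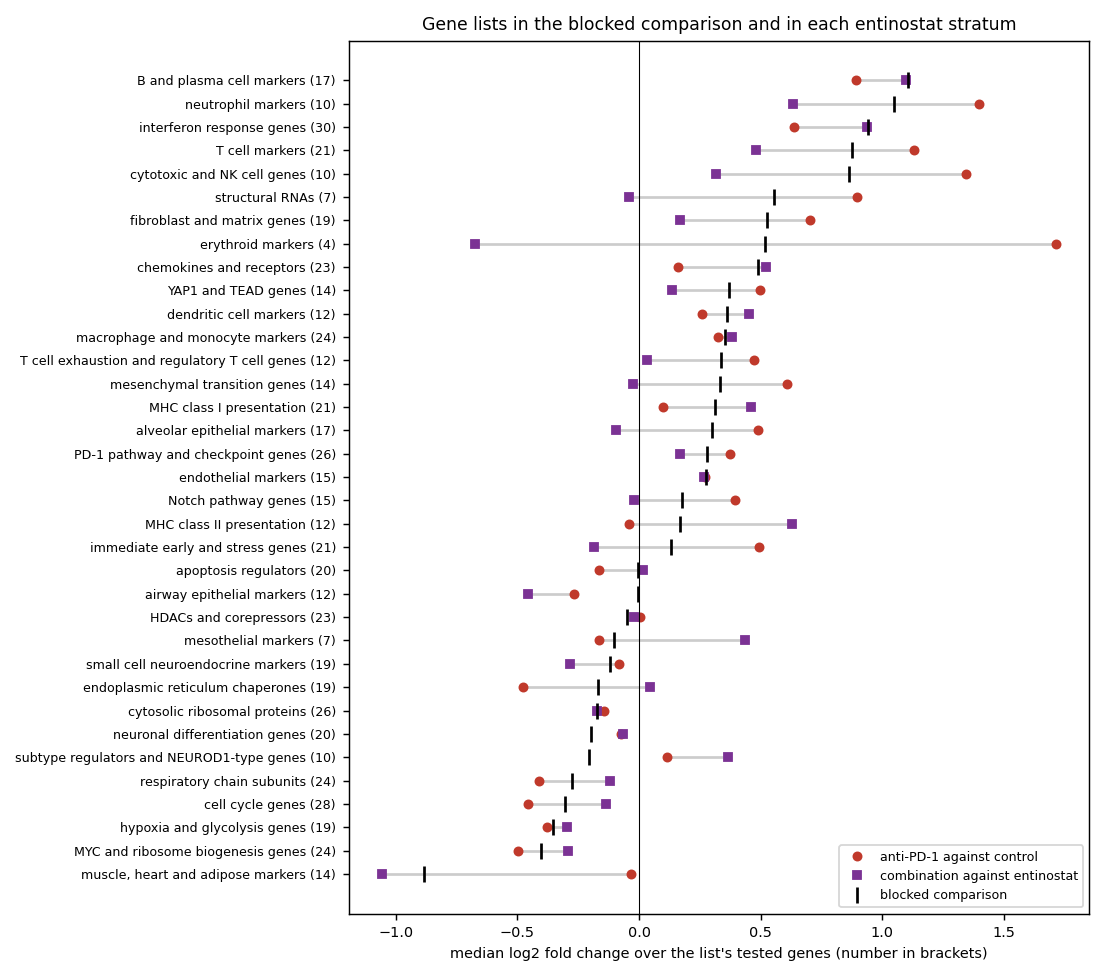
Median log2 fold change (horizontal axis) over the tested genes of each of 35 lists (vertical axis, number of genes in brackets) in the stratum without entinostat (circles), under entinostat (squares) and in the blocked comparison (ticks). Immune lists lie to the right and proliferation and metabolism lists to the left of 0 in the blocked comparison, and for several lists, such as endoplasmic reticulum chaperones, circle and square lie on opposite sides of 0.

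The share of counts in structural RNA was larger with anti-PD-1 than in controls. The libraries were poly(A)-selected, so this share need not reflect the level of these RNAs in the tumour. Rpph1, Rn45s and Rmrp, the RNA parts of RNase P, the ribosomal precursor and RNase MRP, together took 11.4% ± 3.08 of counts in controls and 27.5% ± 8.15 with anti-PD-1 (SD, n = 3 each). They took 17.8% ± 2.22 with entinostat and 17.9% ± 0.17 in the combination. Over both strata the mean was 22.7% ± 7.36 with and 14.6% ± 4.24 without the antibody (SD, n = 6), a difference of 8.1 percentage points (exact two-sided permutation test within strata, p = 0.05, smallest possible 0.005). The difference was 16.1 points without entinostat and 0.115 points with it. For the gap between these differences, exact permutation of antibody labels within strata gave p = 0.055, or p = 0.02 with Rn45s left out. That permutation assumes no antibody difference in either stratum, so it cannot tell whether the antibody difference changed with entinostat. With this share as a covariate, edgeR passed 0 genes and 503 had an unadjusted p under 0.05, 340 higher and 163 lower. The difference without entinostat also moved with transcript length: by quartile of length from shortest to longest the median log2 difference was −0.18, −0.13, −0.02 and 0.14 there, against 0.04, 0.04, 0.03 and 0.02 under entinostat. The part that structural RNA, transcript length or sex had in the gene differences was not tested beyond these values.

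**Figure D5:**
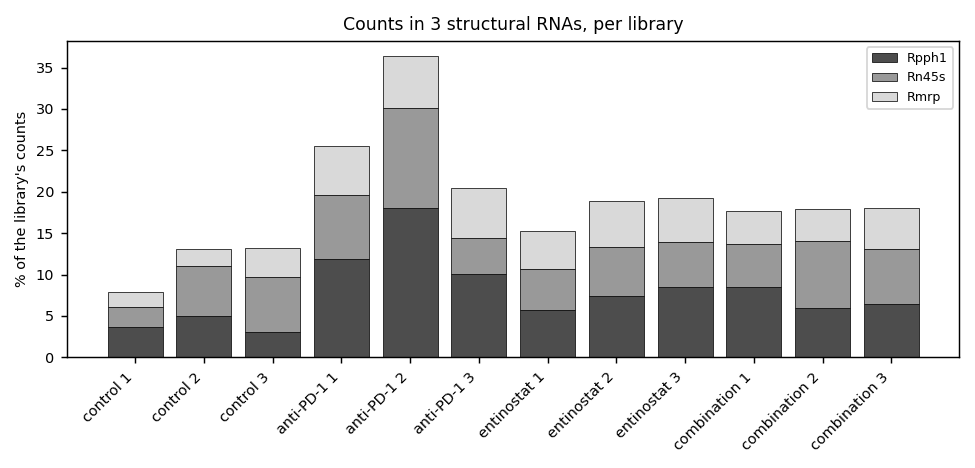
Percent of each library's counts (vertical axis) assigned to Rpph1, Rn45s and Rmrp, stacked, for the 12 libraries by group. The anti-PD-1 bars stand at 20.5 to 36.4%, above the control bars at 7.84 to 13.2%, while entinostat and combination bars stand at 15.2 to 19.3%.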

How the data were processed

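RNA from flash-frozen dissected tumour was made into poly(A)-selected libraries, per the labels' protocols. The authors deposited 1 table of raw counts, with 22738 gene rows and 12 library columns, all used. Per the submitters' processing notes the tools were Trim Galore, Trimmomatic 0.36, STAR 2.5.4a, DESeq2 1.22.2 and R 3.5.1 with the build mm9; the sources used here give neither annotation nor strand setting nor treatment of multiply mapped reads, so no coordinates are printed, and genes with near-identical copies, processed pseudogenes or overlapping partners are uncertain. Between 65.3% and 77.2% of counts from 1 to 20 were even, so both mates may have been counted. All libraries carry 1 batch label, and for the combination libraries the titles, which name both agents, were followed over a tag that names only the antibody.

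Counts were fitted in R 4.3.3 with edgeR 4.0.16: filterByExpr (17426 genes kept), TMM factors and the robust quasi-likelihood test, with antibody and entinostat as additive terms over all 12 libraries and Benjamini-Hochberg adjustment at 0.05. The strata and their interaction were contrasts of a model with a mean per group. The script was tested on simulated data. CPM uses TMM-scaled totals. DESeq2 1.42.0, other factors, filters and designs, covariates, halved counts and leaving out each library were alternatives. All 66 library pairs differed by more than sampling noise. Replicate numbers were not taken to pair the samples, since not every same-numbered pair of libraries from different groups had a residual correlation over 0.1: 8 of 18 did (range −0.292 to 0.226), and 11 of 36 pairs with other numbers (−0.315 to 0.39).

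Members and the 35 gene lists were chosen with earlier results of these data known. A list's share set against that of all genes is therefore descriptive and not independent support. Lists can share members, as the MYC and hypoxia lists share Ldha, so their counts are not separate results. Genes are named by a rule: the 12 highest and 12 lowest log2 fold changes at an unadjusted p under 0.01, a mean log2 CPM of 1 or more and no overlap within strata, skipping predicted and small RNA genes; up to 3 genes by smallest p and the most expressed gene of each list; the 3 with smallest interaction p; and fixed genes of the PD-1 pathway and the tumour model. Lrp1, Lat and the genes that only DESeq2 passed were named after their values were seen, and a subset of the rule's genes is given, and certain others are not reported here. Transcript lengths are from GENCODE M21, matched by symbol for 15183 genes (87.1%).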

Additional observations from a re-analysis of the deposited data

Results flagged for a closer look

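Within the 6 libraries with and the 6 without antibody, the highest and lowest values were checked for a gap to the nearest other library that was large against the range of the group (Dixon's ratio above its critical value, on log2 CPM). Of 170 sets of values 9 held such a library (5.29%), and chance gives about 1 in 20. Control library 1 accounted for 5 of the 9. It was far below the other libraries without antibody for Irf7 (1.096 CPM against 2.17 to 3.06), Cd274 (1.292 against 3.52 to 4.73), H2-K1 (10.29 against 48.2 to 88.2) and Cd74 (1.898 against 15.6 to 50.7), and far above them for Syt4 (161.4 against 73.8 to 97.9). Anti-PD-1 library 1 was far above the other libraries with antibody for Ldha (711.1 CPM against 464 to 519) and Pgk1 (405.2 against 203 to 257). Anti-PD-1 library 3 was far below for Tgfb1 (1.843 CPM against 4.94 to 8.44), and combination library 3 for Syt4 (22.77 CPM against 48.9 to 77.3).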

How the results depend on the processing

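The blocked count of 0 genes held in all 24 edgeR alternatives, which included RLE and upper quartile factors, no filter and a stricter one, a design without the entinostat block, sex, alveolar score and structural RNA share as covariates, halved counts, removal of structural RNAs and leaving out each library. DESeq2 gave 11 for the blocked comparison, 704 for anti-PD-1 against control, 1 (Ccdc172) for the combination against entinostat and 60 for the interaction; the cause was not tested. The sex, structural RNA and halved-count alternatives were chosen after seeing the data.

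Replicate numbers were not taken to pair the samples, though the residual correlations cannot exclude a pairing. With the replicate block, anti-PD-1 against control gave 0 genes in place of 1 (smallest adjusted p 0.0569 in edgeR), and the other comparisons stayed at 0. Leaving out 1 library gave 0 to 2 genes for anti-PD-1 against control (2, Cpne7 and Lars2, without control replicate 2) and 1077 to 2052 genes at an unadjusted p under 0.05 in the blocked comparison. Of the 77 genes followed, Snord104 (−0.09688) and Scarna6 (−0.08099) reversed with the structural RNA covariate, 11 values became significant, all with DESeq2, and 1899 kept side and direction. The structural RNA difference was 5.864 to 9.854 points over the leave-outs (exact permutation p from 0.035, without entinostat replicate 2 or 3, to 0.125) and 5.922 without Rn45s (exact permutation p = 0.085).

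With 6 libraries against 6 and a median standard error of 0.27 in log2, moderate differences could not be called, and T cell transcripts under 1 CPM rest on few counts.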

Other observations

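The smallest p-values in the test of a difference between strata belonged to Snord104, Scarna6 and Lars2. Prompted by these values, all genes of small nucleolar and Cajal body RNAs were counted, a group chosen after its values were seen; such RNAs guide modification of other RNAs and mostly lack a poly(A) tail. Of 109 tested, 105 had a positive log2 difference in anti-PD-1 against control (8694 of all 17426 genes did) and 99 a negative one in the combination against entinostat (7873 of all genes). Their medians were 0.89 and −0.43, against −0.00 and 0.04 over all genes. At an unadjusted p under 0.05, 53 were higher in the first (906 of all genes) and 8 lower in the second (105 of all genes), and 0 passed after adjustment in edgeR, with smallest adjusted p-values of 0.0641 and 1. Scarna6 was at 158, 199.5 and 133 CPM in controls, 563, 502 and 584 with anti-PD-1, 233, 360.1 and 487 with entinostat and 255, 239 and 183 in the combination. In the blocked comparison the 109 genes had a median of 0.23, so that a pattern of opposite sign in the strata was not visible there. The share of structural RNA moved in the same direction in the first stratum, and its part in these values was not tested.

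Rb1, which carries conditional alleles in every group (their recombination was not measured here), was at 26.6 to 50.9 CPM without and 36.4 to 81.7 CPM with the antibody (log2 difference 0.41, SE 0.21, edgeR adjusted p 0.541). Trp53 was at 10.9 to 20.04 CPM without and 8.40 to 19.0 CPM with it.

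Among the 6 libraries with Y-linked transcripts, entinostat library 2 had Ddx3y at 3.28 CPM while the other 5 had 58.0 to 117 CPM; Kdm5d was at 44.9 CPM in it and at 40.6 to 47.1 CPM in the others.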
